A study of Mus musculus with 4 samples.

Results

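The integrins and the core proteins of the focal adhesion were examined in cardiomyocytes isolated from mouse hearts after sham surgery or transverse aortic constriction (TAC), in which a surgical band on the aortic arch puts the left ventricle under a pressure load. Members were taken by gene symbol: every gene whose symbol begins with Itga, every Itgb symbol followed by digits alone, and Ilk, Parva, Parvb, Lims1, Lims2, Fermt2, Tln1, Tln2, Vcl, Pxn, Ptk2 and Zyx. This gave 38 of the 22322 genes in the tables, namely 18 alpha integrins, 8 beta integrins and 12 focal adhesion core genes. The rule used no measured value. Per the labels, 2 libraries came from sham and 2 from TAC mice, all of cardiomyocytes. Per the study's methods, the mice were males operated at 2 months of age, echocardiography followed 14 weeks after TAC, and each sample held a part of the myocytes of a single heart, released by Langendorff perfusion with enzymes. The methods also call the mice 14-week-old when tissue was taken, so the age at collection is not clear from them. No genetic change or other agent distinguished the groups, and no source used here names the strain.

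Integrins are membrane receptors made of an alpha and a beta chain that bind the extracellular matrix outside the cell and the actin cytoskeleton inside it. Talin and kindlin bind the beta tail and switch the receptor on, and vinculin and the complex of ILK, PINCH and parvin tie it to actin. Paxillin, focal adhesion kinase and zyxin carry signals and respond to tension. In the cardiomyocyte these proteins gather at the costamere, which couples the sarcomere to the matrix, and at the intercalated disc, and alpha 7 beta 1 is the laminin receptor typical of adult muscle.

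The libraries held 24237777 to 32118323 counts. Levels are given as CPM, the count of a gene scaled to a common library size, with TMM factors chosen so that the bulk of genes keeps its level between libraries. TAC 1 stood apart from the other libraries: 47.42% of its counts were from mitochondrial protein-coding genes, against 39.84% to 40.85% in the others, and its TMM factor was 0.868 against 1.009 to 1.097. The cardiomyocyte label was met by the marker genes, since 10 cardiomyocyte markers such as Myh6 and Tnnt2 summed to between 79040 and 87840 CPM with no separation of the groups. Markers of other heart cells were present at lower levels, and their values in the groups are given below beside the members they concern.

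Most integrin and focal adhesion genes did not pass the test for a difference, and 3 members rose in TAC: the alpha integrins Itga9 and Itga5 and the tension-sensing adaptor Zyx. Each gene was tested with edgeR's quasi-likelihood test, with Benjamini-Hochberg adjustment of the p-values over all 12499 genes that passed a filter on low counts. A gene was called at an adjusted p under 0.05. Of the 38 members, 33 passed the filter, and 3 of these were called (9.09%), against 5.01% of all genes tested. All 3 were higher in TAC, where 2.58% of all genes were called. No member was called lower by edgeR, where 2.43% of all genes were, but 4 of 8 called members were lower without the low-count filter and 6 of 10 without TAC 2. Calls over all genes rose in these settings too, to 1676 of 16015 genes (969 lower) without the filter and to 1336 of 12914 (776 lower) without TAC 2. DESeq2 called the same 3 members and no lower one, and at an unadjusted edgeR p under 0.05 there were 5 higher and 9 lower members. These 14 of 33 members compare with 27.5% of all genes. The CPM of the groups did not overlap for 18 members, with TAC above sham in 7 and below it in 11, against 60.1% of all genes tested without overlap. The log2 fold change, TAC over sham, was positive for 17 members and negative for 16, with a median of 0.01 beside -0.01 over all genes. The direction of small differences depended on scaling. Scaling by total counts moved the median of all genes to -0.20 and split the calls into 105 higher and 423 lower, where TMM gave 322 higher and 304 lower. With total counts, 2 members were called, Itga5 and Itga9.

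**Figure D1:**
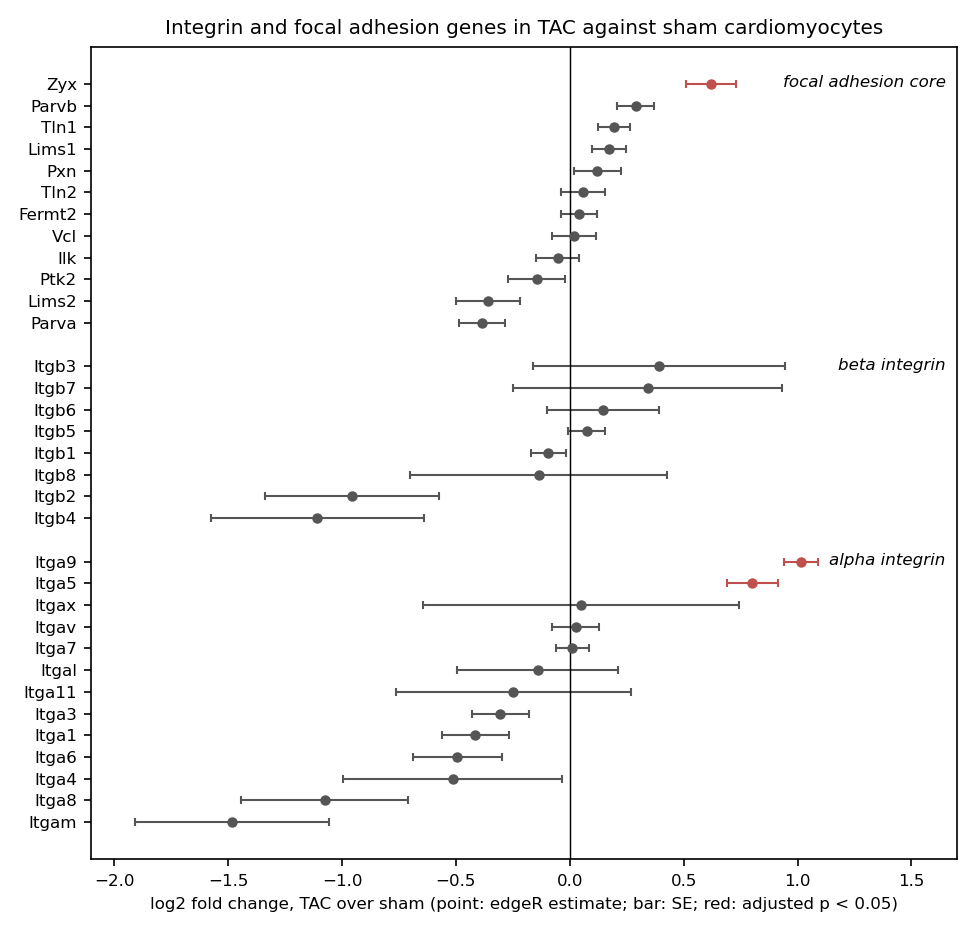
Log2 fold change (TAC over sham, edgeR estimate, bar: standard error) of the 33 members tested, ordered within alpha integrins, beta integrins and focal adhesion core, with called genes in red. Itga9, Itga5 and Zyx lie at 1.01, 0.80 and 0.62, and most well-expressed members lie near 0, where total-count scaling turns Itga7, Itgav, Itgax, Itgb5, Itgb6, Fermt2, Lims1, Pxn, Tln2 and Vcl from positive to negative values.

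Itga9 encodes the alpha chain that pairs with beta 1 and binds tenascin C, osteopontin and other ligands. It lies on chr9:118606690-118901003 (GRCm38, plus strand, ENSMUSG00000039115). The CPM of Itga9 was 65.1 for sham 1 and 69.8 for sham 2, and 136.3 for TAC 1 and 135.9 for TAC 2. Both TAC libraries were thus at about the same level and well above both sham libraries. The mean was 67.4 ± 3.33 CPM in sham and 136.1 ± 0.248 CPM in TAC (SD, n = 2 each). The log2 fold change was 1.01 ± 0.07 (SE), a 2.02-fold rise, with an edgeR adjusted p of 0.00342. Itga9 was called under all 12 alternative settings, with log2 fold changes from 0.77 to 1.07 and adjusted p-values of edgeR, DESeq2 or limma from 9.28e-20 to 0.0294. Without TAC 1 its log2 fold change was 1.01.

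Itga5 encodes the alpha chain of the main fibronectin receptor, alpha 5 beta 1. It lies on chr15:103344286-103366763 (minus strand, ENSMUSG00000000555). Itga5 levels were 37.9 CPM in sham 1, 37.6 CPM in sham 2, 73.1 CPM in TAC 1 and 58.5 CPM in TAC 2. The sham libraries were almost equal, and both TAC libraries were higher, TAC 1 the more so. The log2 fold change was 0.80 ± 0.11 (SE), 1.74-fold, with an edgeR adjusted p of 0.0148. Without TAC 1 the log2 fold change of Itga5 was 0.63, and it was still called. The call was lost when the deposited FPKM (fragments per length of transcript and library size) was tested with limma, at an adjusted p of 0.0624 or 0.0633 by pseudocount, in a range over the alternatives from 4.28e-07 to 0.0633.

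Zyx encodes zyxin, a LIM protein that moves to actin fibres under tension. It lies on chr6:42349630-42360213 (plus strand, ENSMUSG00000029860), and its exons overlap those of Epha1 on the other strand, so that reads of the pair can be told apart by strand alone. Zyx stood at 16.8 and 15.8 CPM in the sham libraries and at 26.9 CPM in TAC 1 and 23.2 CPM in TAC 2, without overlap. The log2 fold change was 0.62 ± 0.11 (SE), 1.54-fold, with an edgeR adjusted p of 0.0282. It was the least stable of the called members. The edgeR adjusted p was 0.107 with total-count scaling and 0.0902 without TAC 1, and limma on FPKM gave 0.117 and 0.121, in a range over all alternatives from 0.00181 to 0.121.

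**Figure D2:**
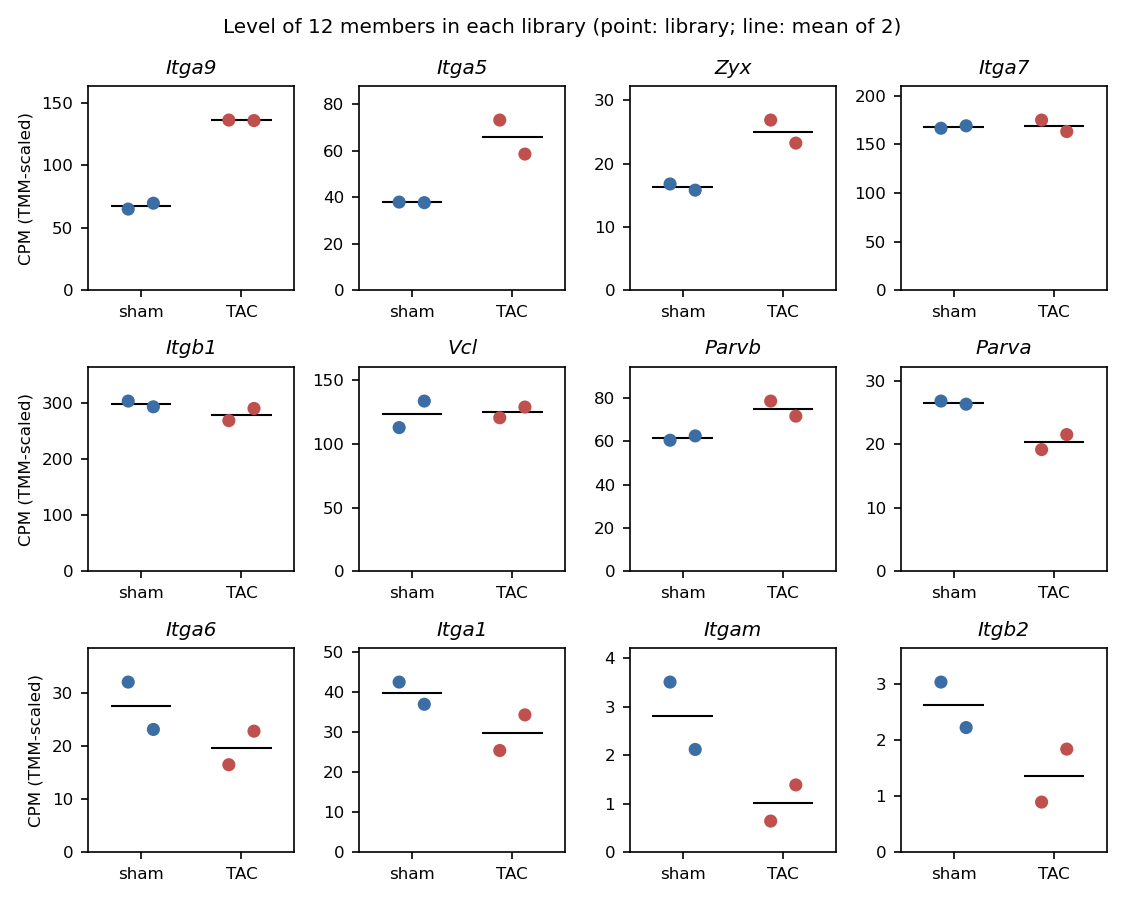
TMM-scaled CPM of 12 members in each library (point: library, line: mean of 2; each panel starts at 0). Itga9, Itga5, Zyx and Parvb are higher in both TAC libraries, Parva, Itga6, Itga1, Itgam and Itgb2 are lower in both, and Itga7 and Vcl overlap.

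Sequences are shown for the called genes and for members whose start region holds a CArG box, the rarest of the motifs searched, so that the letters stand beside the values. RefSeq windows from 250 bases before to 50 bases after a gene's start (GRCm38.p6) were matched by symbol for 25 of the 38 members, in 30 windows. Both strands were searched for an AP-1 site with any middle base, TGANTCA, and for the MCAT motif of TEAD factors, CATTCC. They were also searched for a CArG box, the binding motif of serum response factor. The motifs were chosen after the results were known, and a match is a description of the letters only. The AP-1 letters occurred in windows of 4 members, Itga3, Itga9, Itgax and Zyx, and in 7.81% of all 32851 windows. The match was TGAATCA for Itga3, TGACTCA for Itga9 and TGAGTCA for Itgax and Zyx. The CArG box occurred for 3 members, Vcl, Fermt2 and Itgb6, and in 1.63% of all windows, and MCAT for Itga10, Itgb1 and Vcl and in 14.7% of all windows. The 3 members with a CArG box were not among the called genes. The Itga9 and Itgb6 windows of RefSeq lie inside the genes as GENCODE draws them, at later starts, and are not shown. The 250 bases before the RefSeq start of Itga5, which hold none of these motifs and have a GC content of 55.6%, are given 5′ to 3′ on the minus strand (chr15:103366792-103367041).
Itga5: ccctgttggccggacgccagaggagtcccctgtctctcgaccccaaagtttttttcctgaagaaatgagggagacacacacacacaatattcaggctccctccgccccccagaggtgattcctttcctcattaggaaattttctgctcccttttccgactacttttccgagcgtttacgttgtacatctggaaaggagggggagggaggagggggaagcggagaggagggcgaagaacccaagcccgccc
For the motif matches, 10 bases on each side are given with the match in capitals. The Zyx match lies at chr6:42349697-42349723 (plus strand, first base of the match at -121 from the RefSeq start, inside the gene as GENCODE draws it), that of Vcl at chr14:20929161-20929190 (plus strand, -227) and that of Fermt2 at chr14:45530250-45530279 (minus strand, -204).
Zyx, AP-1: gtgcggacagTGAGTCAgttctccagc
Vcl, CArG box: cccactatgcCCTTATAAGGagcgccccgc
Fermt2, CArG box: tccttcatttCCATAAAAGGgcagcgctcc

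The study also examined miRNAs, and the 3′UTRs of the members (longest per gene in GENCODE M21) were searched for letters complementary to the seeds, bases 2 to 8, of 5 miRNAs that it tested in reporters. At least 1 match to let-7f, miR-16, miR-200b, miR-92a or miR-24 was present in 18 of 33 members and in 51.1% of 12383 genes tested with a 3′UTR. By family, 11 members matched miR-16 (25.4% of all genes), 5 matched let-7f (10.7%), 5 matched miR-200b (16%), 4 matched miR-92a (7.8%) and 3 matched miR-24 (19.6%). Of the called members, Itga5 held 1 match to miR-92a-3p at bases 947 to 953 of its 3′UTR of 983 bases, Itga9 held 1 match to miR-24-3p at bases 1404 to 1410 of 3671, and Zyx held none. The miRNAs are shown with the seed in capitals and the sites with the matching letters in capitals, all 5′ to 3′ from RefSeq and GENCODE. Binding was not measured here.
miR-92a-3p: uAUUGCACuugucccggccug
Itga5 site: aaactctgttgcaaGTGCAATaa
miR-24-3p: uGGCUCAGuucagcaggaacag
Itga9 site: tcatgcaaagaactCTGAGCCaa

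The laminin receptor chains of muscle did not pass the test. Itga7, the alpha chain typical of muscle, stood at 166.5 and 169.0 CPM in sham and at 174.9 and 163.1 CPM in TAC, so that the TAC libraries enclosed the sham ones. Its log2 fold change was 0.01 ± 0.07 (SE, edgeR adjusted p = 0.939), and it turned to -0.18 with total-count scaling, near the median of -0.20 that this scaling gave all genes. The exons of Itga7 overlap those of Mettl7b on the other strand. Itgb1, the beta chain that pairs with alpha 1 to alpha 11, stood at 302.6 and 292.4 CPM in sham and at 267.9 and 289.5 CPM in TAC. Both TAC libraries were below both sham libraries by a margin smaller than the spread within TAC. The log2 fold change of Itgb1 was -0.09 ± 0.08 (SE, edgeR adjusted p = 0.448). Itgb5, which pairs with alpha V in the vitronectin receptor, ranged from 81.8 to 93.0 CPM and Itgav from 18.4 to 20.2 CPM, both with overlapping groups.

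Levels of different genes were compared per length, by the deposited FPKM averaged over the 4 libraries, so that the place of a gene that differs between groups holds for the average alone. Itga9, for example, had a mean of 10.3 FPKM in sham and 18.2 FPKM in TAC. Itgb1 led all members at 118.9 FPKM. It was followed by the kindlin Fermt2 (51.5), Itga7 (42.0), Itgb5 (32.4), the PINCH gene Lims1 (28.2), Vcl (23.6), Parvb (18.1), Ilk (17.5), Itga9 (14.2), Tln1 (12.1), Itga5 (11.6) and Lims2 (11.5). Between 2 and 10 FPKM lay Zyx (9.20), Tln2 (9.15), Pxn (5.86), Itga6 (5.75), Parva (5.70), Ptk2 (5.58), Itgb6 (4.13), Itga1 (3.23), Itgav (3.20) and Itga3 (2.34). Itgb2 at 0.703 and Itgam at 0.435 FPKM came next, and the other 14 members were at most 0.215 FPKM. Itgb1, Itga7 and Itgb5 lead the integrins in this order, and Itgb2 and Itgam are the highest of the leukocyte integrins.

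Itga9 and Itga5 took a larger share of the alpha integrin RNA in both TAC libraries, and Itga7 a smaller one. Of the summed alpha FPKM, Itga7 held 53.1% and 54.7% in the sham libraries and 47.6% and 46.0% in TAC 1 and TAC 2. Itga9 held 11.9% and 12.9% in sham, and 21.2% and 21.9% in TAC. Itga5 held 11.1% and 11.2% in sham, and 18.2% and 15.1% in TAC. The sum depended on the scale: in FPKM it overlapped, at 85.7 and 80.1 in sham and 79.5 and 89.1 in TAC, while in TMM-scaled CPM it was 382.1 and 373.6 in sham and 457.2 and 449.2 in TAC. The same shift can be read within a library as a ratio of counts, which no scaling between libraries can move. Itga9 had 0.391 and 0.413 counts per count of Itga7 in sham, and 0.779 and 0.834 in TAC. For Itga5 the ratio to Itga7 was 0.228 and 0.223 in sham, and 0.418 and 0.359 in TAC. Shares among the beta chains lay closer together: Itgb1 held 75.1% to 76.8% and Itgb5 19.7% to 21.6% of the summed beta FPKM in the 4 libraries. These shares and ratios are given as descriptions, since an exact two-sided permutation test of 2 against 2 libraries has a smallest possible p of 0.333.

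**Figure D3:**
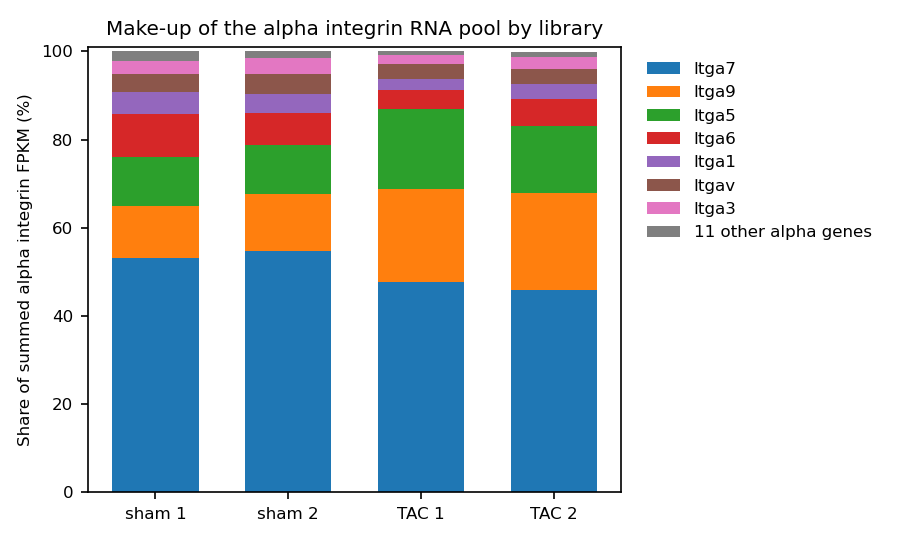
Share of the summed alpha integrin FPKM (%) held by each gene in each library, with 11 low genes pooled in grey. Itga9 takes 11.9% and 12.9% in sham and 21.2% and 21.9% in TAC, and Itga7 remains the largest share in every library.

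The complex of ILK, PINCH and parvin links beta 1 to actin, and its parvin genes had log2 fold changes of opposite sign, neither past the test. Ilk, the pseudokinase at its centre, stood at 32.5 and 29.2 CPM in sham and at 29.3 and 30.1 CPM in TAC, with overlapping groups (log2 fold change -0.05 ± 0.09 SE, edgeR adjusted p = 0.74). Its exons overlap those of Rrp8 and Taf10 on the other strand. Parva, the alpha parvin, was at 26.8 and 26.3 CPM in sham and at 19.2 and 21.6 CPM in TAC (-0.39 ± 0.10 SE, edgeR adjusted p = 0.0688). Parvb, the beta parvin, which is rich in heart and skeletal muscle, was at 60.4 and 62.4 CPM in sham and at 78.5 and 71.5 CPM in TAC (0.29 ± 0.08 SE, edgeR adjusted p = 0.0793). Neither parvin overlapped between groups. The ratio of Parvb to Parva counts within a library was 2.25 and 2.37 in sham, and 4.09 and 3.32 in TAC, with the value of TAC 1 the highest. The adjusted p over the alternatives ran from 0.0257 to 0.239 for Parva and from 0.0275 to 0.681 for Parvb, and without TAC 2 both were called by edgeR. Under total-count scaling Parvb shrank to a log2 fold change of 0.10.

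The PINCH genes showed a like pair of values. Lims1 stood at 99.5 and 108.2 CPM in sham and at 118.6 and 115.4 CPM in TAC, a log2 fold change of 0.17 ± 0.08 (SE, edgeR adjusted p = 0.193) that turned to -0.02 with total-count scaling. Lims2 stood at 18.7 and 17.2 CPM in sham and at 12.3 and 15.8 CPM in TAC (-0.36 ± 0.14 SE, edgeR adjusted p = 0.157). Groups did not overlap for either gene, and the exons of Lims2 overlap those of Gpr17 on the other strand. The ratio of Lims1 to Lims2 counts was 5.32 and 6.28 in sham and 9.67 and 7.29 in TAC. Without TAC 2, Lims2 was called by edgeR at -0.55, and without TAC 1 its log2 fold change was -0.18.

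**Figure D4:**
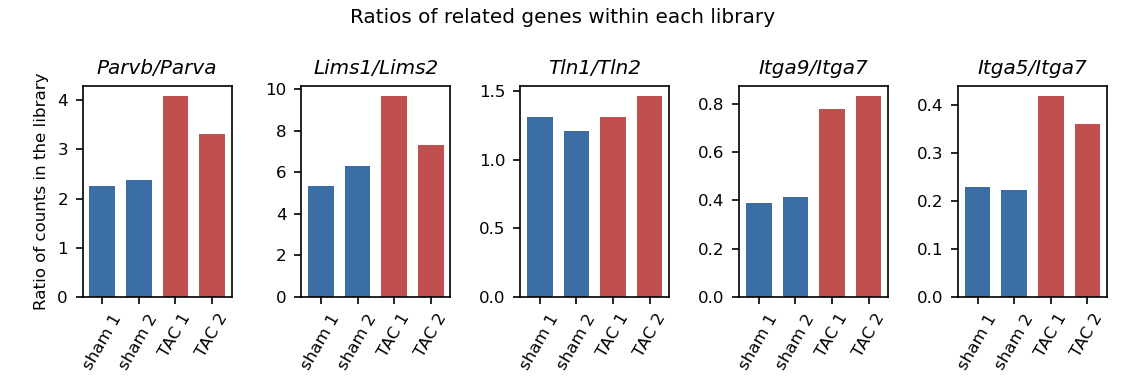
Ratio of the counts of related genes within each library (bars from 0; blue sham, red TAC). Parvb to Parva, Lims1 to Lims2, Itga9 to Itga7 and Itga5 to Itga7 are higher in both TAC libraries, and Tln1 to Tln2 runs from 1.21 to 1.46, with sham 1 at 1.309 just below TAC 1 at 1.314.

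The talins, kindlin, vinculin, paxillin and focal adhesion kinase did not pass the test, with log2 fold changes from -0.14 to 0.20. Tln1, the talin found in most cells, stood at 93.9 and 95.0 CPM in sham and at 110.5 and 105.8 CPM in TAC (0.20 ± 0.07 SE, edgeR adjusted p = 0.132). Under total-count scaling the Tln1 value shrank to 0.0060 on the log2 scale, and its exons overlap those of Creb3 on the other strand. Tln2, the talin prevalent in adult striated muscle, stood at 71.8 and 78.5 CPM in sham and at 84.1 and 72.3 CPM in TAC, with a log2 fold change of 0.06 ± 0.10 (SE, edgeR adjusted p = 0.727) that turned to -0.14 with total-count scaling. The talin groups thus did not overlap for Tln1 and did for Tln2. Fermt2 ranged from 114.8 to 126.8 CPM and Vcl from 112.8 to 133.6 CPM over the 4 libraries, with log2 fold changes of 0.04 and 0.02 that turned to -0.15 and -0.16 with total-count scaling. The exons of Vcl overlap those of Ap3m1 on the other strand. Pxn, for the adaptor paxillin, had a log2 fold change of 0.12, or -0.07 with total-count scaling, and Ptk2, for focal adhesion kinase, one of -0.14, and neither reached an unadjusted p of 0.05.

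The members with the most negative log2 fold changes were Itgam, Itgb4, Itga8 and Itgb2, at 8 to 111 counts a library, and none passed the test. Itga6 and Itga1, given in the next paragraph, were not at low counts, with 461 to 1016 and 708 to 1343 a library. Without the low-count filter, Itgam, Itga6 and Itga1 were called lower, as they were without TAC 2. Itgam and Itgb2, the chains of the macrophage receptor Mac-1, were lower in both TAC libraries. Itgam had 3.51 and 2.12 CPM in sham and 0.646 and 1.39 CPM in TAC (-1.48 ± 0.43 SE, edgeR adjusted p = 0.0852), and its log2 fold change was -1.02 without TAC 1, -1.07 without sham 1, -1.79 without sham 2 and -2.12 without TAC 2, the last 2 called. Itgb2 had 3.03 and 2.22 CPM in sham and 0.897 and 1.84 CPM in TAC (-0.96 ± 0.38 SE, edgeR adjusted p = 0.161), and its log2 fold change was -0.52 without TAC 1 and -1.55, called, without TAC 2. The 8 leukocyte integrins (Itgal, Itgam, Itgax, Itgad, Itgae, Itga4, Itgb2 and Itgb7) summed to 9.70, 6.57, 3.77 and 6.09 CPM in sham 1, sham 2, TAC 1 and TAC 2. Of these 8 genes 6 were tested, 2 (Itgax and Itgb7) with positive and 4 with negative log2 fold changes. Of the markers of macrophages and other leukocytes, all 9 tested had negative log2 fold changes (median -0.93, 0 called by edgeR and 1 by DESeq2, 5 at an unadjusted edgeR p under 0.05, all lower), and the summed level of the list was 109.0 and 57.8 CPM in sham and 30.6 and 57.1 CPM in TAC. The T cell marker Cd3e did not pass the filter. In these bulk samples, fewer cells of a type and less RNA per cell cannot be told apart, and the part of leukocytes in the Itgam and Itgb2 values was not tested.

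Itga6 and Itga1, laminin and collagen receptor chains that endothelial and mural cells also make, had negative log2 fold changes that did not pass the test. Itga6 stood at 32.1 and 23.2 CPM in sham and at 16.5 and 22.9 CPM in TAC, so that sham 2 and TAC 2 were nearly equal (-0.49 ± 0.19 SE, edgeR adjusted p = 0.155). Without sham 1 its log2 fold change was -0.24, without TAC 1 it was -0.28, and without sham 2 or TAC 2 it was -0.70 or -0.74, called in both. Itga1 stood at 42.4 and 36.9 CPM in sham and at 25.4 and 34.3 CPM in TAC (-0.41 ± 0.15 SE, edgeR adjusted p = 0.126). For both genes TAC 1 was the lowest library, and without it the log2 fold change of Itga1 was -0.21. Without TAC 2 that of Itga1 was -0.64, without sham 1 it was -0.31 and without sham 2 it was -0.51. All 10 endothelial markers had negative log2 fold changes (median -0.62, of which edgeR called Cdh5, Esam and Egfl7 and DESeq2 called 7), with sums of 624.7 and 503.6 CPM in sham and 306.4 and 420.9 CPM in TAC. All 9 mural markers did too (median -0.86, of which edgeR called Pdgfrb and Abcc9 and DESeq2 called 3), with sums of 757.1 and 795.7 CPM in sham and 440.1 and 578.3 CPM in TAC. Abcc9, which cardiomyocytes also express, made up 379.8, 406.1, 279.0 and 302.6 CPM of these sums. The part of these cells in the Itga6 and Itga1 values was not tested.

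Of the remaining members at an unadjusted p under 0.05, Itga8, a chain of mural and mesangial cells, stood at 1.33 and 1.18 CPM in sham and at 0.574 and 0.613 CPM in TAC (-1.08 ± 0.37 SE, edgeR adjusted p = 0.117). Itgb4, the epithelial partner of alpha 6, stood at 0.853 and 0.730 CPM in sham and at 0.287 and 0.450 CPM in TAC (-1.11 ± 0.47 SE, edgeR adjusted p = 0.176), which are 8 to 27 counts a library. Itga3, a laminin receptor chain, stood at 10.5 and 10.9 CPM in sham and at 8.61 and 8.71 CPM in TAC (-0.31 ± 0.13 SE, edgeR adjusted p = 0.17). The groups of these 3 genes did not overlap, and at these counts of Itga8 and Itgb4 the standard errors are wide. Itgb6, the TGF-beta activating chain of epithelia, ranged from 12.5 CPM in sham 2 to 23.1 CPM in sham 1, with both TAC libraries between them at 20.1 and 19.5 CPM. Its log2 fold change was 0.15, and without sham 1 it was 0.66 and called higher by edgeR, against -0.22 without sham 2. The tested members Itga4, Itga11, Itgal, Itgax, Itgb3, Itgb7 and Itgb8 were at 0.174 to 1.33 CPM, and none reached an unadjusted p of 0.05. The 5 members that did not pass the filter, Itga10, Itga2, Itga2b, Itgad and Itgae, had 0 to 13 counts a library. Itgad was at 0 in both sham libraries and at 1 and 2 counts in TAC, which is no more than a count of 0 allows.

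The called members had the opposite sign to the markers of other cells. Fibroblast markers, of which all 10 had negative log2 fold changes (median -0.78, with Dcn and Lum called by edgeR and 4 by DESeq2), summed to 248.0 and 177.0 CPM in sham and to 104.9 and 141.1 CPM in TAC, while Itga9, Itga5 and Zyx were higher in both TAC libraries. Of 8 platelet markers, listed for the platelet receptor chains Itga2b and Itgb3, 2 were tested, the list summed to 1.83 to 3.51 CPM, and Gp9 and Treml1 were at 0 in all libraries. The 10 cardiomyocyte markers had a median log2 fold change of 0.04, and edgeR called none of them, with 3 at an unadjusted p under 0.05, while DESeq2 called 2 higher and 1 lower.

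**Figure D5:**
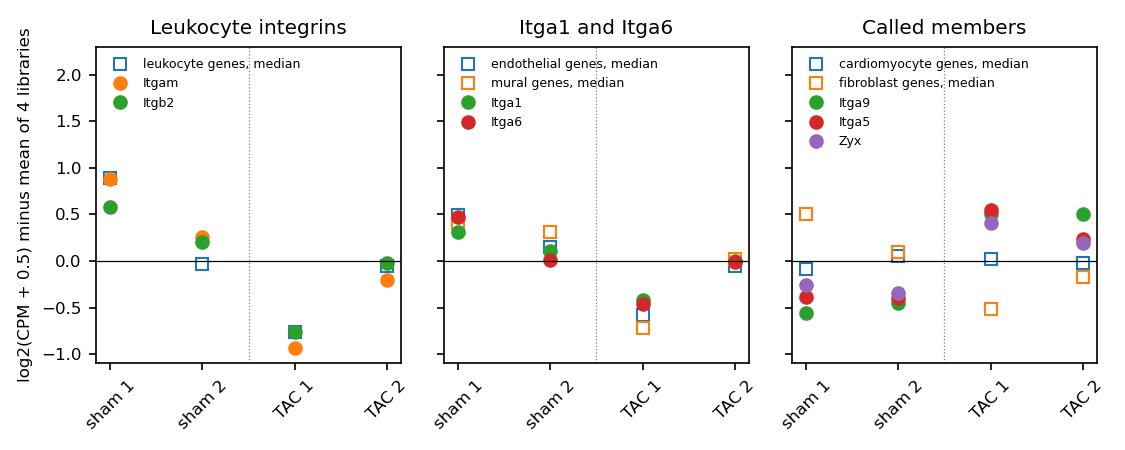
Level of members (filled) and median of marker lists (open squares) in each library, as log2(CPM + 0.5) minus the mean of the 4 libraries. Itgam and Itgb2 are lowest in TAC 1 and highest in sham 1 like the leukocyte list, as are Itga1 and Itga6 beside the endothelial and mural lists. The fibroblast list, at 0.503 in sham 1 and -0.512 in TAC 1, has the same extremes, as have the platelet and matrix ligand lists, which are not drawn. Itga9, Itga5 and Zyx are above 0 in both TAC libraries and the fibroblast list is below 0.

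Of 47 adhesion partners, proteins that bind or signal from the members, 43 were tested, with a median log2 fold change of 0.02. Among them 4 were called by edgeR (9.30%), against 5.01% of all genes tested. They were 3 higher and 1 lower in TAC, where 2.58% and 2.43% of all genes were called. Enah, an Ena/VASP protein that zyxin recruits to extend actin, stood at 112.0 and 105.1 CPM in sham and at 217.1 and 245.4 CPM in TAC (1.09 ± 0.09 SE, edgeR adjusted p = 0.00342). Flnc, the muscle filamin that crosslinks actin and binds integrin tails, stood at 418.3 and 441.0 CPM in sham and at 753.8 and 775.7 CPM in TAC (0.83 ± 0.08 SE, edgeR adjusted p = 0.00445). These are among the most abundant partner genes and rose in both TAC libraries. Sorbs2, an adaptor of the Z-disc and of vinculin, rose from 376.4 and 380.5 CPM to 637.6 and 614.2 CPM (0.73 ± 0.07 SE, edgeR adjusted p = 0.00492), and limma on FPKM gave it 0.36 and did not call it. Tns2, a tensin that ties beta tails to actin, fell from 95.2 and 92.9 CPM to 55.0 and 68.8 CPM (-0.60 ± 0.11 SE, edgeR adjusted p = 0.0284). Without TAC 1 the log2 fold change of Tns2 was -0.45 and it was not called.

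Of 22 genes for matrix ligands of these receptors, 19 were tested and 4 were called by edgeR (21.1%), against 5.01% of all genes tested. The calls were 2 in each direction. Of the 19 log2 fold changes 17 were negative, with a median of -0.47. Over all genes 6359 of 12499 were negative, with a median of -0.01. Mfge8, a secreted ligand of alpha V integrins, rose from 89.3 and 81.9 CPM in sham to 119.9 and 124.3 CPM in TAC (0.51 ± 0.08 SE, edgeR adjusted p = 0.0175). It was not called with total-count scaling, at 0.33, or by limma on FPKM, at 0.32 with either pseudocount. The basement membrane genes Nid1 and Agrn were lower. Nid1, nidogen, fell from 43.6 and 34.8 CPM to 21.5 and 27.5 CPM (-0.68 ± 0.15 SE, edgeR adjusted p = 0.0477), and Agrn, agrin, from 36.1 and 43.3 CPM to 28.4 and 28.1 CPM (-0.49 ± 0.11 SE, edgeR adjusted p = 0.0467). With limma on FPKM neither was called, at -0.85 or -0.72 for Nid1 and -0.66 or -0.55 for Agrn by pseudocount. The log2 fold change of Nid1 was -0.51 without sham 1, and that of Agrn was -0.35 without sham 2. Without TAC 1 neither was called, at -0.51 for Nid1 and -0.50 for Agrn. Many of these ligands are also made by the endothelial, mural and fibroblast cells whose markers all had negative log2 fold changes, with the values given above, and their part in the ligand values was not tested.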

How the data were processed

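Cardiomyocyte RNA was sequenced in 2 sham and 2 TAC libraries, grouped and numbered by their titles. Per gene, the values deposited by the authors are an expected count (estimated, so not always whole) and an FPKM. The submitters' processing notes list Bowtie2 2.2.8, StringTie 1.3.1 and mm10, but the role of each tool, the counting program, strand use and the FPKM length are not stated in these sources. Counts of 6 members were not whole in some library (Itga1, Itga10, Itgam, Ilk, Tln2 and Vcl), so how reads shared with overlapping genes were divided is not known. Counts were rounded and analysed in R 4.3.3 with edgeR 4.0.16 (filterByExpr, TMM, glmQLFit, glmQLFTest, no block) over 12499 genes, with a common biological coefficient of variation of 10.5%. A standard error was the log2 fold change over the square root of F. The deposited FPKM served for levels between genes and, with a pseudocount of 0.1 or 1, for limma 3.58.1, and DESeq2 1.42.0 was an alternative. Total-count scaling, which the methods of the study name, was a further alternative. The script was tested on simulated counts.

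Replicates differed beyond sampling noise (chi-square per degree of freedom 8.08 in sham, 26.71 in TAC) and were kept apart. Per the methods each sample came from a single heart, but the labels name no animals, so p-values measure the spread between these samples. All members were named. Called members, Itga7, Itgb1, Ilk and the paralogue pairs Parva/Parvb, Lims1/Lims2 and Tln1/Tln2 were given with every library, members at an unadjusted p under 0.05 with values, and partners and ligands where called. The members, gene lists, motifs and miRNAs were chosen with earlier results of these data known. The values of 1 called ligand gene are not reported here.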

Additional observations from a re-analysis of the deposited data

How the results depend on the processing

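Itga9 was called in all 12 alternatives. Without the low-count filter 8 members were called, 4 of them lower, with 7 partners and 9 ligands, of 1676 genes in all. With total counts less the mitochondrial genes, Itga5, Itga9 and Zyx were called higher and Parva lower. Over all genes that setting called 188 higher and 450 lower, where TMM gave 322 higher and 304 lower. limma on log2(FPKM + 0.1) called 1 member, Itga9, higher, and 0 ligands, of 195 genes in all. On log2(FPKM + 1) it called 1 member, Itga9, higher, and 1 ligand, of 214 genes in all. The main edgeR fit called 626 genes. Leaving out each library in turn gave 2 to 10 called members, of which 2 to 4 were higher and 0 to 6 lower, 3 to 7 partners and 2 to 9 ligands, with 2 called members (of 301 genes in all) without TAC 1, 10 (of 1336) without TAC 2, 4 (of 577) without sham 1 and 5 (of 746) without sham 2. Where a single library is left in a group, it is assumed to vary like the other group. Small differences changed sign. The log2 fold change of Itga7 was -0.18 with total counts, -0.089 with total counts less mitochondrial genes, -0.180 and -0.176 with FPKM, and -0.040 (without TAC 1) to 0.063 (without TAC 2) with a library left out. Lims1 was at -0.016 with total counts and at -0.053 and -0.051 with FPKM. Tln2 was at -0.136 with total counts, -0.042 with total counts less mitochondrial genes, -0.021 and -0.019 with FPKM, and -0.056 (without TAC 1) to 0.165 (without TAC 2) with a library left out, with -0.0053 without sham 1. With a library left out, Ilk was at -0.124 (without sham 2) to 0.027 (without sham 1), and it was negative in all other settings, down to -0.25 with FPKM. The cause was not tested. The named members' other fold changes had 115 values with the same direction and call, 8 that gained a call and 6 that lost one.

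The methods speak of pairs of sham and TAC mice without saying that the replicate numbers mark them, and the deviations of same-numbered libraries had a correlation of -0.242. With a replicate block the same 3 members were called, of 566 genes in all, with 4 partners and 4 ligands. Crossing the numbers, chosen after seeing the data, called 9 members (5 lower), 8 partners and 10 ligands, of 2131 genes in all. With n = 2 per group and members such as Itgb4 at 8 to 27 counts, depth limits what can be seen of the low integrins.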
